A study of Mus musculus with 19 samples.

Results

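Nuclear factor I (NFI) and NeuroD transcription factor genes were followed across 4 thyroid hormone states of the fetal mouse cortex. The set held 9 genes of 20394 named genes on the array: Nfia, Nfib, Nfic, Nfix, Neurod1, Neurod2, Neurod4, Neurod6 and Bhlhe22. They were chosen from earlier results of the same arrays, because Nfib, Nfix and Neurod6 had been lower in the hypo_plus group than in the hypo group, and every probe set that carries one of the 9 symbols was then taken. That gave 34 of 45037 probe sets, 24 for the NFI genes and 10 for the NeuroD genes and Bhlhe22. The authors' table called 30 of the 34 present and 4 absent, namely Nfia 1446742_at, Nfic 1427665_a_at, Nfic 1422565_s_at and Neurod4 1418055_at.

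Cerebral cortex of wild-type C57BL/6 fetuses, labelled female, was taken on gestational day 16 and hybridised to 19 arrays, 1 fetus each. Dams of the control group (5 arrays) drank 2% sucrose water from gestational day 13 and received vehicle 12 hours before they were killed. The hypo group (5 arrays) received vehicle and drank 2% sucrose water that also held 1% perchlorate and 0.025% methimazole, drugs that block the thyroid; other labels of the same samples name the drug as propylthiouracil. In the hypo_plus group (5 arrays) the same drugged water was followed by an injection of 25 µg T4 and 2.5 µg T3 per 100 g body weight. Dams of the hyper group (4 arrays) drank sucrose water and received 100 µg T4 and 10 µg T3 per 100 g. The labels do not say whether some fetuses came from 1 dam, and p-values measure only the spread between these arrays. All values are the authors' normalized signals on a linear scale, which allow a probe set to be compared between arrays but not with another probe set. On 2 arrays, hypo_plus replicate 1 and hyper replicate 4, transcripts of the Y chromosome were high and Xist was low against the female label. These are called the Y-positive arrays. The cortical markers Emx1, Tbr1 and Bcl11b were all called present.

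NFI proteins bind DNA as dimers at a palindrome of TTGGC, 5 bases of any kind and GCCAA, and in the developing forebrain act in glial differentiation, in the exit of radial glia from self-renewal and in the formation of the corpus callosum. NeuroD proteins are basic helix-loop-helix (bHLH) factors that bind E-boxes (CANNTG) as dimers with E proteins and follow the neurogenins in the differentiation of glutamatergic neurons. Bhlhe22 belongs to a related bHLH family, acts as a repressor together with Prdm8 in cortical projection neurons, and is expressed in overlapping dorsal territories.

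Promoters of 4 member genes are shown because the 9 genes include both the factors and possible carriers of their motifs. Each window holds the 250 bases before the annotated start, taken from RefSeq on GRCm38.p6 and written 5′ to 3′ on the gene's strand. Capitals mark E-boxes, the NFI element TTGGC or GCCAA, and the thyroid hormone receptor element AGGTCA or TGACCT. The windows lie at chr6:55681264-55681513 (minus strand) for Neurod6, chr11:98329646-98329895 (minus strand) for Neurod2, chr4:97581693-97581942 (plus strand) for Nfia and chr8:84775829-84776078 (minus strand) for the second annotated start of Nfix.
Neurod6: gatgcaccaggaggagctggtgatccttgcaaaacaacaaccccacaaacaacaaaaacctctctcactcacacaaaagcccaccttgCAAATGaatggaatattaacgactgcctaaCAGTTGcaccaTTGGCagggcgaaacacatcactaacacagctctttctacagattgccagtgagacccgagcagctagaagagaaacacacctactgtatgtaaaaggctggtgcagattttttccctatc
Neurod2: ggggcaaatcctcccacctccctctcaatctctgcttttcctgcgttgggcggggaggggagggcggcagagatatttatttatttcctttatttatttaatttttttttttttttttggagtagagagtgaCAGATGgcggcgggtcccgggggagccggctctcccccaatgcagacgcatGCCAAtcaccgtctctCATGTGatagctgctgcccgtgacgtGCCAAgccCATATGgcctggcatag
Nfia: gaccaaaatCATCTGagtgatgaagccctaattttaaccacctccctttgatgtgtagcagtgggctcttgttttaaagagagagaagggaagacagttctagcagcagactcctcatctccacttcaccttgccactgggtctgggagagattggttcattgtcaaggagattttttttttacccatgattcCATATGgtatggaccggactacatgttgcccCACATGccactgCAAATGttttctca
Nfix: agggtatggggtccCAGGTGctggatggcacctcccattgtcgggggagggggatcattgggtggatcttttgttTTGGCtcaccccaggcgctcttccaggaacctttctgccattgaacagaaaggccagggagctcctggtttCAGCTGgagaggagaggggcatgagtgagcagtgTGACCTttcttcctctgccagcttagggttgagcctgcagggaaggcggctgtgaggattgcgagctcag

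Of the 4 windows, that of Neurod6 held 2 E-boxes and 1 NFI element, and that of Neurod2 held 3 E-boxes, 1 of them of the NeuroD type CAGATG, and 2 NFI elements. The Nfia window held 4 E-boxes, 1 of them of the type CATCTG, the same motif on the other strand, and no NFI element. The Nfix window held 2 E-boxes, 1 NFI element and 1 thyroid hormone receptor element. It was shown because it held the most motifs of the 4 annotated Nfix starts: the window of the first start held none of these motifs, the third 1 thyroid hormone receptor element, and the fourth 1 E-box and 1 NFI element. Such motifs were common: of 32851 promoter windows of the same length, searched on both strands, 66.2% held an E-box, 14.4% the NeuroD type, 41.5% an NFI element and 14% a thyroid hormone receptor element. The full NFI palindrome was in 0.0365% of them and in 0 of the 11 windows of the members. None of the motif matches overlapped in these windows. Windows were given for 7 members, and Nfib and Bhlhe22 are named only. Among the members not shown, the windows of Nfic and Neurod1 each held 1 E-box and no NFI element. Both Neurod4 windows held 0 E-boxes and 1 NFI element. Each of the 4 windows shown thus held more E-boxes than any member window not shown, and they do not stand for all members.

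All 7 probe sets of Nfib and all 5 of Nfix were lower in hypo_plus than in hypo, with a median difference of −0.52 for each gene. The leading probe set of Nfib, that with the highest mean signal over all arrays (1427680_a_at), read 6159.1, 5469.0, 4389.7, 6033.4 and 5546.4 on the control arrays and 5558.8, 6519.2, 6456.0, 4252.0 and 7372.5 on the hypo arrays. On the hypo_plus arrays it read 5081.2, 3370.3, 3537.0, 4191.2 and 3562.0, and on the hyper arrays 6270.9, 5112.8, 5532.5 and 5065.5. All hypo_plus arrays but replicate 1 lay below every array of the other groups. The difference between hypo_plus and hypo, in log2(signal + 32) as are all differences below, was −0.60 ± 0.14 (SE, n = 5 and 5). Other Nfib probe sets had differences of −0.67 ± 0.13 (1434102_at), −0.56 ± 0.14 (1454834_at) and −0.52 ± 0.18 (1448288_at). Probe sets 1416293_at, 1434101_at and 1438244_at had smaller ones, −0.27, −0.14 and −0.10. Fewer cells of a type and less RNA per cell cannot be told apart in such tissue samples.

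Nfix, which like Nfib acts in radial glia and in cortical and hippocampal development, read 6673.5, 6168.6, 4344.6, 6277.2 and 4674.7 on the control arrays with its leading probe set (1436363_a_at). The hypo arrays gave 6364.3, 6381.5, 7034.0, 3978.9 and 8060.5, and the hypo_plus arrays 6251.4, 3762.4, 3792.3, 5855.1 and 3876.0. On the hyper arrays it read 7617.4, 5926.7, 6204.8 and 8289.3. Replicates 2, 3 and 5 of hypo_plus were below all other arrays, whereas replicates 1 and 4 lay among the controls, so the groups overlapped. The difference between hypo_plus and hypo was −0.43 ± 0.19 for this probe set, −0.61 ± 0.18 for 1423493_a_at and −0.52 ± 0.17 for 1436364_x_at. The dimmer 1459909_at, whose readings ran from 55.6 to 364.4 over all arrays, and 1451443_at had −0.63 ± 0.34 and −0.32 ± 0.14.

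Nfia, which starts gliogenesis in the spinal cord and is needed for the corpus callosum, gave different readings from different probe sets. Its leading probe set (1456087_at) read 2709.8, 2573.4, 1662.1, 2401.5 and 2170.1 on the control arrays, 2162.7, 2786.7, 2400.2, 1578.0 and 3058.3 on the hypo arrays, 2830.3, 2198.3, 1599.6, 2038.6 and 1609.4 on the hypo_plus arrays, and 2905.4, 2176.3, 2031.9 and 2771.8 on the hyper arrays. The 4 groups overlapped throughout, with a difference of −0.22 ± 0.19 between hypo_plus and hypo. Probe set 1446990_at differed by −0.61 ± 0.15, with hypo_plus arrays between 588.6 and 987.1 and hypo arrays between 862.3 and 1351.8. In contrast 1421162_a_at had a difference of 0.35 ± 0.13 in the other direction. Nfic, known for its part in tooth root formation, had a difference of 0.13 ± 0.18 with its leading probe set (1435527_at), on which hypo replicate 5 read 655.2 and the other 18 arrays 247.6 to 530.6. Its other present probe sets had −0.11 ± 0.13 (1429148_at) and 0.12 ± 0.11 (1450661_x_at).

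Among the NeuroD genes, Neurod6, a marker of postmitotic glutamatergic neurons of the pallium, read 3987.5, 3193.9, 3365.1, 3761.1 and 4188.8 on the control arrays (1418047_at). It read 4422.2, 4574.9, 4748.7, 2176.0 and 4898.2 on the hypo arrays, 4589.7, 2305.4, 2623.8, 4001.6 and 2147.0 on the hypo_plus arrays, and 4964.5, 3680.7, 3161.5 and 3892.7 on the hyper arrays. Low readings, between 2147.0 and 2623.8, were found on hypo_plus replicates 2, 3 and 5 and on hypo replicate 4. The difference between hypo_plus and hypo was −0.42 ± 0.23, −0.63 without hypo replicate 4 and −0.57 without the pair of Y-positive arrays. Hypo replicate 4 had a median signal over all probe sets of 73.7, while those of the remaining hypo arrays ran from 83.0 to 103.6. Control replicates 2 and 3 had medians as low, 73.1 and 74.9. Their Neurod6 readings, 3193.9 and 3365.1, were the lowest of the controls but above that of hypo replicate 4. The part of the array median in the low readings of hypo replicate 4 was not tested.

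Neurod2, which acts in synapse formation and thalamocortical connections, read 1438.1, 2348.7, 1825.1, 2030.6 and 1790.8 on the control arrays with its leading probe set (1418995_at). The hypo arrays gave 2327.7, 2030.7, 2042.1, 1666.7 and 2936.1, the hypo_plus arrays 1981.7, 1695.5, 1416.0, 1537.3 and 1650.4, and the hyper arrays 2327.6, 1739.4, 1997.1 and 2411.8. Hypo_plus and hypo overlapped only through hypo_plus replicates 1 and 2 and hypo replicate 4, and the difference was −0.39 ± 0.14. A second Neurod2 probe set (1435411_at) gave −0.39 ± 0.11 without overlap, hypo_plus reading 1273.1 to 1561.4 and hypo 1623.8 to 2088.7. The remaining, dim probe set (1444362_at) gave 0.00 ± 0.13.

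Neurod1, which is needed for endocrine cells of the pancreas and for granule neurons, had differences of −0.31 ± 0.15 (1426413_at) and −0.38 ± 0.21 (1426412_at). Bhlhe22 (1418271_at) differed by −0.29 ± 0.15, with hypo arrays spread from 2848.8 to 5431.1 and controls from 3814.8 to 4287.7. Neurod4, a bHLH factor of early neuronal differentiation, was dim, with readings of at most 100.8, and its probe sets gave 0.01 ± 0.23 (1436694_s_at) and −0.44 ± 0.23 (1418054_at).

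**Figure D1:**
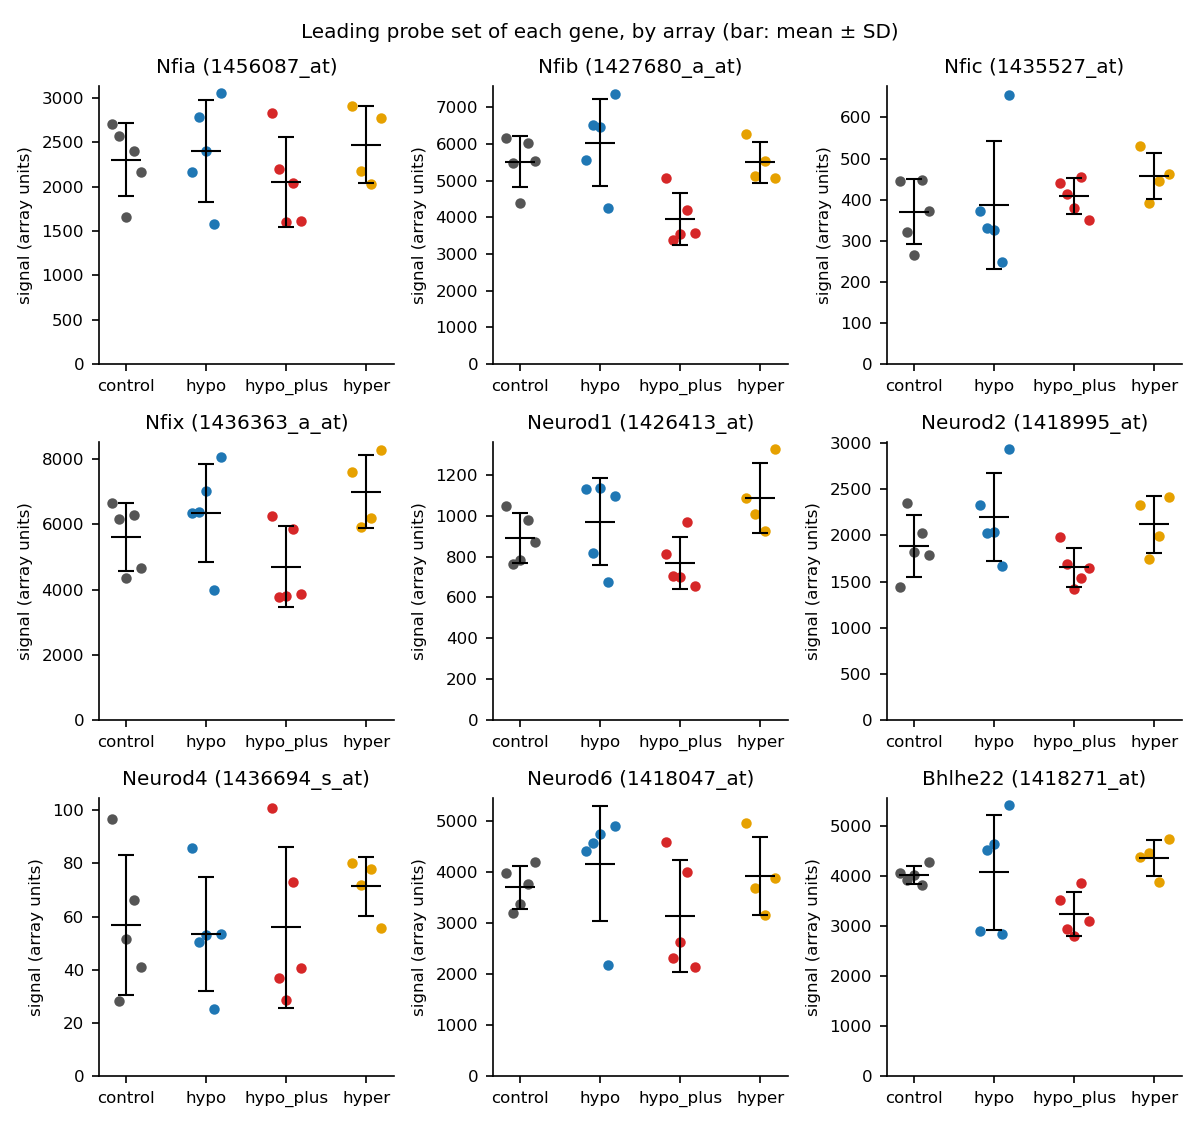
Signal of the leading probe set of each of the 9 genes (y axis, array units from 0) in the 4 groups (x axis), with 1 point per array and bars for the mean ± SD. Nfib sat at 3370.3 to 5081.2 in hypo_plus, and the low hypo point of Neurod6 is replicate 4 at 2176.0.

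The comparison of hypo_plus with hypo chose the members, so its values describe them and support nothing. In it 4 of 34 member probe sets had an adjusted p under 0.05 with limma, all lower (3 of Nfib and Nfia 1446990_at), beside 3.16% of all probe sets in either direction and 1.13% lower. The count was 1 to 7 when single arrays were left out, with 7 without hypo replicate 4 and 1 without hypo replicate 2, 3 or 5 or hypo_plus replicate 2, 3 or 5. Over all probe sets 753 to 1692 were called in those fits, and 1421 with all arrays. Without the pair of Y-positive arrays the member count was 6, beside 1115 of all probe sets. The median member difference was −0.28, and 7 of 34 were positive, against a median of 0.00 and 50.3% positive over all probe sets. In 1 of 34, Neurod2 1435411_at, all hypo_plus arrays lay below all hypo arrays, beside 1.77% of all probe sets. The authors' deposited table listed 6 of the 34 as lower with an adjusted p under 0.05, beside 4.84% of all probe sets in either direction. In the limma fit the call nearest the threshold was Nfib 1454834_at (−0.56), and the nearest outside it were Neurod2 1435411_at (−0.39) and Nfix 1423493_a_at (−0.61), both of which the authors' table listed.

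Whether the goitrogen alone moved these genes is asked by hypo against control, which shares its hypo arrays with the choosing comparison and is also only described. With limma 0 of 34 member probe sets and 0% of all probe sets passed, and 1 of 34 members, Nfib 1448288_at (0.43 ± 0.18), had an unadjusted p under 0.05, beside 8.19% of all. The members' differences were positive in 25 of 34, with a median of 0.11, against 44.9% and a median of −0.01 over all probe sets. Hypo_plus against control, which shares the hypo_plus arrays, had 2 of 34 lower (Nfib 1434102_at, −0.55 ± 0.13, and Nfia 1446990_at, −0.61 ± 0.15), beside 3.11% called and 1.9% called lower. That count was 0 to 3 when single arrays were left out, with 0 without control replicate 1 or 5 or hypo_plus replicate 2, 3 or 5, and it was 3 without the pair of Y-positive arrays. Over all probe sets 605 to 1884 were called with single arrays left out, 1397 without that pair and 1400 with all arrays. The members' median in hypo_plus against control was −0.20, with 8 of 34 positive, against −0.01 and 47.3% over all probe sets. Nfib 1434102_at was also the 1 member whose hypo_plus arrays (1174.6 to 1913.9) all lay below the controls (1916.0 to 2269.1), beside 2.54% of all probe sets.

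A comparison other than the one that chose the members sets the mean of hypo and hypo_plus against control. It uses the same hypo and hypo_plus arrays. It also averages 2 groups whose member medians against control had opposite signs, 0.11 in hypo and −0.20 in hypo_plus. A mean near 0 can thus come from cancelling and does not show that neither group differed. None of the 34 member probe sets passed with limma, beside 0.12% of all probe sets. The 2 with an unadjusted p under 0.05, beside 11.4% of all, were Nfia 1446990_at (−0.30 ± 0.13, adjusted p = 0.379) and the absent-called Nfic 1422565_s_at (−0.22 ± 0.09, adjusted p = 0.358). The median difference was −0.04, with 13 of 34 positive, against −0.01 and 46.2% over all probe sets. For the leading probe set of Nfib the difference was −0.19 ± 0.12, for Nfix −0.06 ± 0.17 and for Neurod6 −0.09 ± 0.20.

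The high hormone dose without goitrogen was compared with control on arrays that the choice of members did not use. No member passed the threshold: 0 of 34 were called with limma, beside 0.175% of all probe sets, and 6 of 34 had an unadjusted p under 0.05, beside 10.5% of all. Without the pair of Y-positive arrays the count was also 0, beside 46 of all probe sets. The authors' table listed 0 of 34, beside 0.551%. The differences were positive in 29 of 34 probe sets with a median of 0.14, against 54.8% and a median of 0.01 over all probe sets. When each array was centred on its median, 22 of 34 were positive, with a median of 0.04 beside −0.09 over all probe sets. With quantile normalization 28 of 34 were positive, with a median of 0.14 beside −0.005 over all probe sets. Leading probe sets of Nfib, Nfix, Neurod2 and Neurod6 had differences of 0.00 ± 0.15, 0.32 ± 0.20, 0.17 ± 0.15 and 0.07 ± 0.24. The 95% interval ran from −0.31 to 0.31 for Nfib, from −0.11 to 0.75 for Nfix and from −0.43 to 0.58 for Neurod6.

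Probe sets of Nfia stood furthest from 0 in that comparison. Probe set 1421162_a_at read 68.4, 58.9, 65.9, 116.6 and 66.9 on the control arrays and 124.1, 125.4, 119.4 and 123.9 on the hyper arrays. All hyper arrays lay above all controls, which held for 1 of 34 member probe sets, beside 1.68% of all. The difference was 0.56 ± 0.14 with adjusted p = 0.125 by limma, and control replicate 4 was the high control: without it the difference was 0.68 and the adjusted p 0.0133. Over all probe sets 391 passed without that array, beside 79 with all arrays. Both other Nfia probe sets of the same kind of name, 1421163_a_at and 1427733_a_at, had differences of 0.63 ± 0.21 (adjusted p = 0.277) and 0.50 ± 0.19 (adjusted p = 0.347). The remaining present Nfia probe sets had 0.10 ± 0.20 (1456087_at), −0.10 ± 0.20 (1438236_at) and −0.18 ± 0.16 (1446990_at). Which transcripts each probe set detects was not analysed here.

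**Figure D2:**
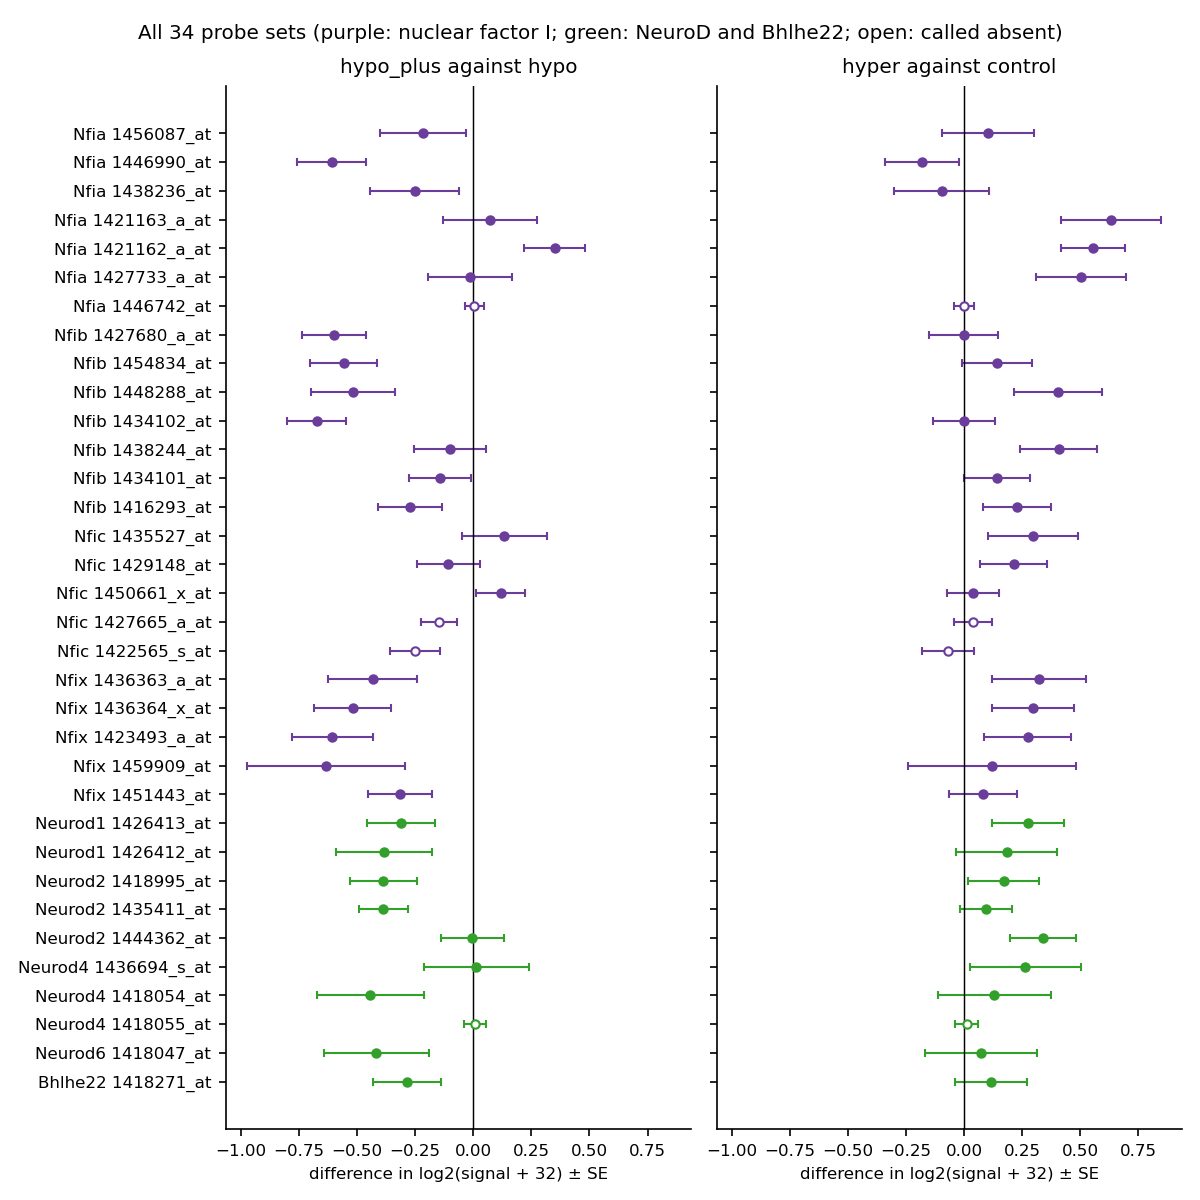
Difference in log2(signal + 32) with its SE (x axis) for each of the 34 probe sets (y axis), for hypo_plus against hypo on the left and hyper against control on the right. Purple marks NFI genes, green NeuroD genes and Bhlhe22, and open points those called absent. On the left 7 of 34 are above 0, on the right 29 of 34.

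**Figure D3:**
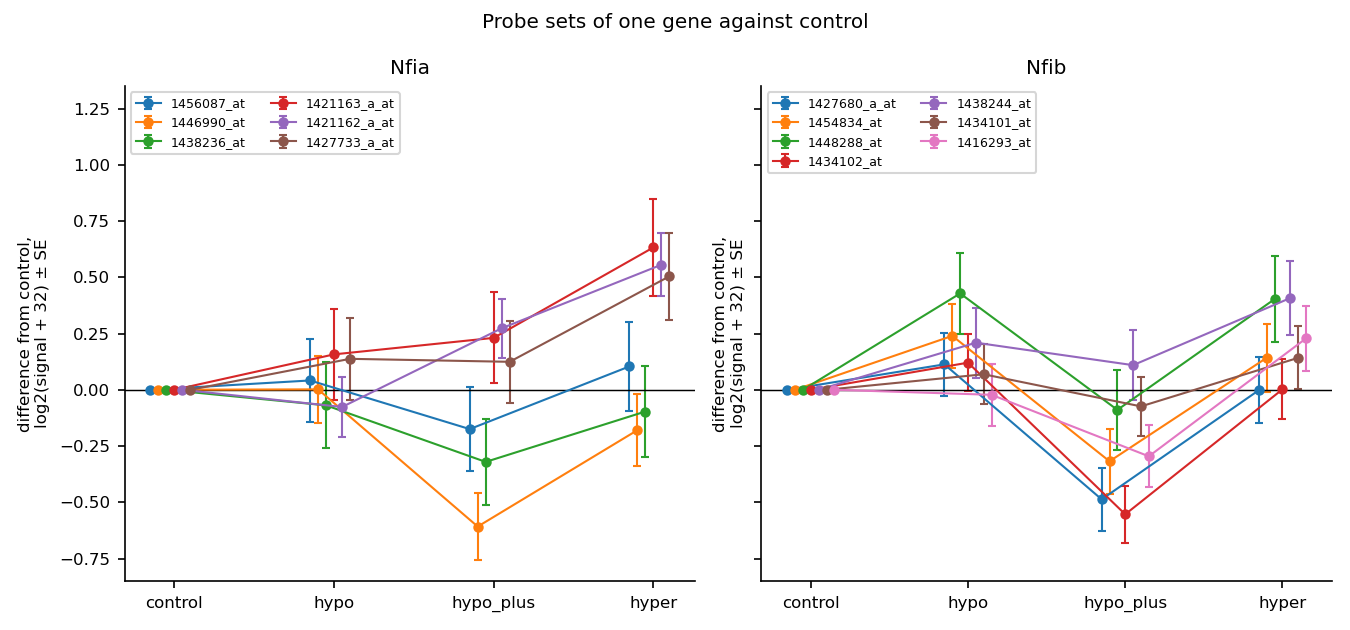
Differences from control in log2(signal + 32) with their SE (y axis) for the present probe sets of Nfia and Nfib in the 4 groups (x axis), with lines joining the values of 1 probe set. Nfia 1421162_a_at, 1421163_a_at and 1427733_a_at lie at 0.50 to 0.63 in hyper, and Nfib 1434102_at lies at −0.55 in hypo_plus.

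The members varied together from array to array. For each array the differences of the leading probe sets from their mean over the 19 arrays were averaged. The 4 NFI genes gave means of −0.29, −0.41 and −0.43 on hypo_plus replicates 2, 3 and 5, and of 0.15 and −0.05 on replicates 1 and 4. The NeuroD genes with Bhlhe22 gave −0.38, −0.45 and −0.40 on the first 3 and 0.14 and 0.04 on the others. Hypo replicate 4 was low for both families (−0.47 and −0.47), whereas the other hypo arrays lay between 0.04 and 0.54 for the NFI genes. Control replicate 3 was low for the NFI genes (−0.39) but at −0.07 for the NeuroD genes with Bhlhe22. After the group means were removed, the correlation between 2 leading probe sets over the 19 arrays was positive in 36 of 36 pairs, from 0.08 (Neurod2 with Neurod4) to 0.86 (Nfib with Nfix), with a median of 0.62. The genes read on 1 array share its normalization and its tissue piece, so these coefficients are a description. Pairs of genes outside the set were not counted beside them. Such genes could correlate as highly with a member: of 11344 searched below, Atf7 reached 0.905 with Nfix and Sec24d 0.912 with Neurod6. The coefficients are therefore not shown to be particular to the members.

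Markers of the ventral telencephalon and interneurons were measured beside the members. The summed signal of 13 measured markers of 14 ran from 8507.3 to 13096.4 in control, from 6490.4 to 11206.0 in hypo, from 10465.0 to 14709.0 in hypo_plus and from 8952.0 to 11327.5 in hyper. Between hypo_plus and hypo 12 of 13 were positive with a median of 0.40, beside 48.9% positive over all genes. Dlx2 and Ebf1 passed, 2 of 13, beside 2.33% of all genes, and Six3 was called absent. In hypo against control 0 of 13 were positive, with a median of −0.20, beside 44.6% of all genes. Hypo_plus against control had 11 of 13 positive with a median of 0.14, beside 44.7%, and 1 passed, beside 1.89%. In hyper against control 7 of 13 were positive with a median of 0.01, beside 54.4%, and 0 passed. Hypo_plus replicates 2 and 3, low for the members, had the highest ventral sums of the group, 14079.6 and 14709.0, and replicate 5 had 11723.0. Hypo replicate 4, also low for the members, had the highest ventral sum of the hypo group (11206.0). Hyper replicate 1, in contrast, was the highest of its group both for the members (mean of 0.33 over the 9 genes) and for the ventral sum (11327.5), and control replicate 5 had the highest control sum (13096.4) with a member mean of −0.04. The 6 diencephalic markers, whose sum ran from 516.8 to 3232.8 in hypo_plus and from 501.3 to 2219.9 in hypo, had a median difference of 0.67 with 4 of 6 positive and 0 passing. Of the cortical markers Emx1, Tbr1 and Bcl11b, 2 of 3 were negative between hypo_plus and hypo, with a median of −0.10. Against control 3 of 3 were negative in hypo_plus (median −0.22), 2 of 3 in hypo (−0.17) and 1 of 3 in hyper (0.07). In each of these comparisons 0 cortical markers passed. The part of any of these cell groups in the members' values was not tested.

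**Figure D4:**
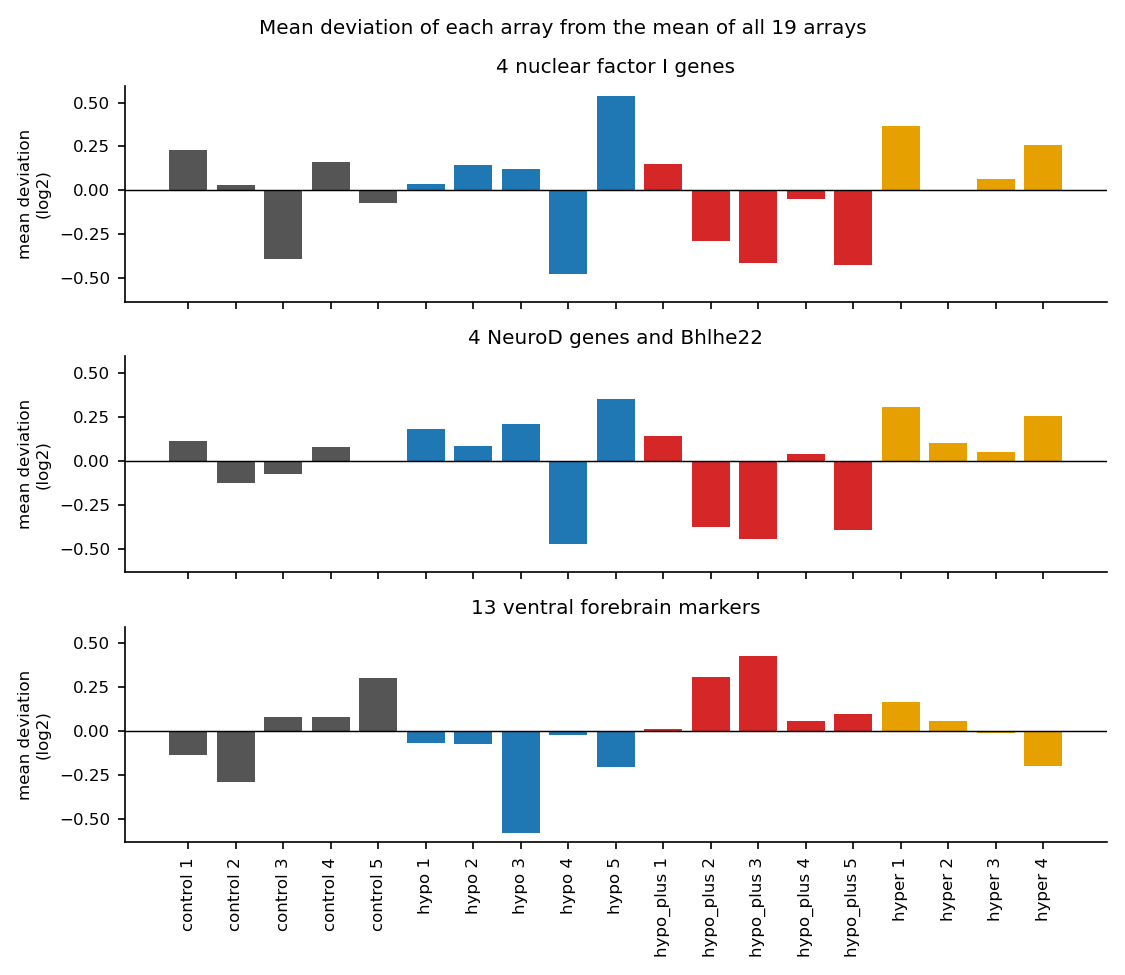
Mean deviation of each array from the mean of all 19 arrays, in log2 units (y axis), for the 4 NFI genes, the 4 NeuroD genes with Bhlhe22, and 13 ventral forebrain markers. Bars are single arrays, coloured by group. Hypo_plus replicates 2, 3 and 5 and hypo replicate 4 are at −0.29 or below in both upper panels, and control replicate 3 is at −0.39 in the top panel.

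Genes whose signal over the 19 arrays was most like that of a member were sought among 11344 genes. For Nfib these were Zbtb18 (Pearson r = 0.91), Fezf2 (0.91), Fam120a, Csrp2 and Dab1. For Nfix they were Ccdc80 (0.91), Mfap4, AI843755, Ier5 and Atf7, and for Neurod6 Sox5 (0.88), Foxred2, Rpl22, G2e3 and Sec24d. These coefficients include the difference between hypo_plus and hypo that chose the members, and the highest of so many are high by selection. After the group means were removed they were 0.81 for Zbtb18, 0.79 for Fezf2, 0.865 for Ccdc80 and 0.90 for Sox5.

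Other genes of the same pathways were counted with 1 probe set per gene. Among 18 NFI partners and genes reported to depend on NFI, 0 passed in hyper against control, beside 0.0981% of all genes, and 0 in the mean of hypo and hypo_plus against control, beside 0.0392%. The 16 bHLH partners and genes of the neurogenic cascade and the 16 genes of the dorsal pallial lineage also had 0 in both. In hypo_plus against hypo, beside 2.33% of all genes, 1 of 18 passed in the NFI list, Bbx (−0.47 ± 0.12). In the bHLH list 2 of 16 passed, Id2 (−0.57 ± 0.14) and Id3 (−0.40 ± 0.10), which encode inhibitors that bind E proteins. Of 16 genes of the dorsal pallial lineage 13 were negative, with a median of −0.24 against 0.00 over all genes, and 3 passed. Of these Fezf2 (−0.80 ± 0.19) and Zbtb18 (−0.40 ± 0.07) were lower and Cux2, a gene of upper-layer neurons, was higher (0.42 ± 0.10). In hypo_plus against control Id2 passed (−0.73 ± 0.14), beside 1.89% of all genes.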

How the data were processed

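Per the file headers and the labels, the authors deposited probe set intensity values of 19 arrays, already normalized, on a linear scale from 8.0 to 29808.5. Per the submitters' processing notes MAS5 and RMA were used, with their roles not given in the sources used here. The authors also deposited signed fold changes, read as a score, with permutation p-values, raw and adjusted, and present or absent calls, per the file headers. The labels' protocols name a rat array, but probe sets and symbols are of mouse. Of 20 arrays the authors removed 1.

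After 64 controls were left out, 45037 probe sets entered 1 limma 3.58.1 fit (R 4.3.3) of 4 group means to log2(value + 32), with 15 residual degrees of freedom, Benjamini-Hochberg adjustment over all probe sets and a threshold of 0.05. Log2 differences of dim probe sets are understated by the added 32. The fit was tested on simulated data. The number of arrays limits the precision. A gene's leading probe set had the highest mean signal. The members and lists were chosen with earlier results of these data known. All probe sets of the 9 genes were described, with every array given for leading probe sets of Nfia, Nfib, Nfix, Neurod2 and Neurod6; the other array values were given where a result turned on them. Other marker lists (choroid plexus, endothelium, erythroid, microglia, meninges) are given in the closing section. Of the cortical marker and dorsal lineage lists 2 genes are not reported here, and counts leave them out.

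Alternatives were quantile normalization, median centring, other pseudocounts, thresholds and filters, subsets of arrays, a replicate block, and each array left out. Residuals of same-numbered arrays correlated from -0.37 to 0.44 over 27 pairs, so the numbers were not taken as pairs.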

Additional observations from a re-analysis of the deposited data

Results flagged for a closer look

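Neurod6 on hypo replicate 4 read 2176.0, far from the other hypo arrays (4422.2 to 4898.2): the gap to the nearest array was 0.874 of the group's whole range. It was the 1 outlying array found among 36 groups of leading probe sets, and chance gives about 1 in 20 groups.

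For 2 probe sets every hypo_plus array lay below the hypo mean while every hyper array lay above the control mean, with means taken of log2(signal + 32). Nfib 1448288_at was -0.52 in hypo_plus against hypo and 0.40 in hyper against control. Nfix 1436364_x_at was -0.52 and 0.30, and without the pair of Y-positive arrays -0.62 and 0.16. The difference between both comparisons was not tested, because the first of them chose the members.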

How the results depend on the processing

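For the leading probe sets, all 1305 values recomputed in the other settings, over the 5 comparisons, moved by less than 1 SD between arrays, and none crossed the threshold in hyper against control or in the mean of hypo and hypo_plus against control. Many of these values could not move. Another threshold, a filter of probe sets or a fit of only the arrays compared keeps the group means. So does leaving out an array of a group that is not compared. The count of 1305 is thus no measure of stability. In hyper against control the count of called members, 0 of 34, ran from 0 to 1 when single arrays were left out, being 1 without control replicate 4, and was 0 in every other setting. Over all probe sets 79 were called in the main fit and 391 without control replicate 4. The counts for the mean of hypo and hypo_plus against control and for hypo against control were 0 in every setting. Over all probe sets 0 to 224 and 0 to 8 were called in these comparisons. In hypo_plus against hypo (4) the count was 7 with each array centred on its median, 7 at an adjusted p under 0.1, 2 with only the arrays compared, 1 of 9 with 1 probe set per gene and 1 to 7 with single arrays left out (7 without hypo replicate 4; 1 without hypo replicate 2, 3 or 5 or hypo_plus replicate 2, 3 or 5). In hypo_plus against control the count was 2, beside 1400 of all probe sets. It was 4 (beside 1996) with median centring and 4 (beside 2534) at an adjusted p under 0.1. It was 0 (beside 554) with only the arrays compared and 0 of 9 (beside 162 genes) with 1 probe set per gene. With single arrays left out it was 0 to 3 (beside 605 to 1884). With the replicate number as a block the counts were 0, 0, 0, 1 and 2 in hyper, in the mean of hypo and hypo_plus, in hypo and in hypo_plus against control and in hypo_plus against hypo. Over all probe sets they were 21, 6, 0, 988 and 1146. The labels do not say that a number marks shared animals, and the correlations of same-numbered arrays were on both sides of 0. The causes of these changes were not tested. Median centring moved the median of all probe sets from -0.01 to -0.11 in hypo_plus against control and the members' median from -0.20 to -0.30. Array number and signal near background limit the 4 probe sets called absent and Neurod4. Low signal is also a limit for other probe sets called present. Among them, Nfix 1451443_at read 29.7 to 80.1 and Neurod2 1444362_at 21.0 to 82.8. Nfia 1421162_a_at read 43.9 to 125.4 and Nfia 1427733_a_at 49.3 to 128.7.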

Other observations

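Other marker lists were measured beside the members in hypo_plus against hypo. None of the 5 choroid plexus markers passed, with a median of -0.12, nor of the 4 endothelial markers (0.02), the 3 measured erythroid markers (-0.07), the 2 measured microglial markers (0.12) or the 4 meningeal markers (-0.08). The summed meningeal signal reached 15669.4 on 1 hyper array, against 8153.7 at most in the other groups.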
